A study of Mus musculus with 9 samples.

Results

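The genes that flank Bub1b on mouse chromosome 2 were followed in gastrocnemius muscle of mice that carry an altered Bub1b allele and of wild-type mice. The list holds 52 names, all on chromosome 2 within 10 Mb of Bub1b, and is given by name; Bub1b itself is not on it. The names were picked with earlier results of these data known, so shares of the list set beside those of all genes are a description, not independent evidence about the region. Of these, 51 were found among the 24062 gene symbols of the count table (Stard9 is not analysed here), and 48 had enough counts to be tested, out of 12989 tested genes in all. Pak6, Plcb2 and Spint1 were not tested, with 0 to 5, 1 to 7 and 0 to 9 counts per library. Measured between gene midpoints, the list runs from -1.468 Mb (Spred1, towards the start of the chromosome) to 3.887 Mb (Gm14085, towards its end), with Trpm7 farther out at 8.214 Mb. The list does not cover its interval: the table has 259 genes within 10 Mb of Bub1b, of which 138 were tested and 90 of those are not on the list.

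The mice were 3 months old and of the mixed background written 129Sve/C57BL/6 in the labels. The genotypes were WT, hetL1002P and hetX753, with 3 libraries each made from whole gastrocnemius, and the carriers have 1 altered and 1 normal Bub1b allele. The labels do not say how or in which strain the alleles were made, whether the WT mice were littermates, or whether the libraries came from separate animals, so p-values measure only the spread between these libraries, which may be partly technical. The L1002P and X753 alleles belong to a study of alleles linked to mosaic variegated aneuploidy, and the comparison asks whether genes close to either allele differ from WT.

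Bub1b encodes BubR1, a protein of the spindle assembly checkpoint, but its neighbours have unrelated tasks, from leucine breakdown to membrane traffic and splicing. Genes that lie close together on a chromosome are inherited together, because recombination seldom separates them. In a mixed background, mice that share an engineered allele therefore tend to share the stretch of chromosome on which it was made, and an allele can also act on its neighbours directly. These samples carry no measurement of strain markers, so a direct effect of the allele on nearby genes and a strain difference linked to it cannot be told apart here.

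Promoter sequences are shown for Pla2g4e, Gm14085 and Trpm7, the genes of the list that passed the test in at least 1 comparison. Each run is the 250 bases of the gene's promoter entry, written 5′ to 3′ on its own strand from RefSeq on GRCm38.p6, with every CG dinucleotide in capitals. The Gm14085 and Trpm7 runs end where the gene spans given below begin. The Pla2g4e run lies inside its gene span, chr2:120166412-120245630, so it is not upstream of the whole annotated gene. They give the C57BL/6J reference, and the sequence carried by these mice was not measured.
Pla2g4e, chr2:120245336-120245585, minus strand: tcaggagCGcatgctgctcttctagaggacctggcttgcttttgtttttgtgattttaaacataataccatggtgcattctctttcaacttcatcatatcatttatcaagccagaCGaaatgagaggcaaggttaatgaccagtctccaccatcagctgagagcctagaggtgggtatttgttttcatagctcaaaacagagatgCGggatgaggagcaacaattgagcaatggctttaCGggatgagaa
Gm14085, chr2:122484691-122484940, plus strand: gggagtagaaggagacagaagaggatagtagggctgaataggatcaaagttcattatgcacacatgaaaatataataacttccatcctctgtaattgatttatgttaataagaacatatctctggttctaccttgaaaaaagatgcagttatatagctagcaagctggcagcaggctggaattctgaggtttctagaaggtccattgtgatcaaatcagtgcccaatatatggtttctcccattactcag
Trpm7, chr2:126876262-126876511, minus strand: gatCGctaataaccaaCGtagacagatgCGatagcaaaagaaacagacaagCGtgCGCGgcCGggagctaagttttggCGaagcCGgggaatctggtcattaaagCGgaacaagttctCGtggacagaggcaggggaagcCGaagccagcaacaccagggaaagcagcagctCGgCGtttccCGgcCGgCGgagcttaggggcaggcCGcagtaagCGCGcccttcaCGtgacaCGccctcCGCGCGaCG

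The windows of these genes differ in their CG content, and that of Pla2g4e lies within its gene span. CG reads the same on both strands. Trpm7 has 26 CG in this window, and 9.24% of the 27025 RefSeq promoters hold at least as many, so it is CpG-rich. Pla2g4e has 4, and 61.9% of promoters hold at least as many. The Gm14085 window has 0. Over the 50 listed genes with a promoter entry the median was 16.5 CG, against 6 over all promoters, so Pla2g4e and Gm14085 lie below the median of their neighbours. The E-box letters CAGCTG, which also read the same on both strands, occur 1 time in the Pla2g4e window (in lower case above) and in 12.8% of all promoters. A match is a description of the letters only.

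Library totals ran from 19768149 to 33977252 counts. Levels are given in CPM, a gene's counts relative to its library's total after TMM scaling, a method that assumes that most genes do not change. Comparisons used edgeR's quasi-likelihood test on all 9 libraries, with Benjamini-Hochberg adjustment over all genes tested and a threshold of 0.05; a log2 fold change above 0 means higher in the genotype named first, and SE is its standard error. WT 3 and hetL1002P 3 stood apart from the rest in a principal component analysis, at -47.5 and -32.5 on component 1 (39.7% of the variance) where the other 7 ran from -9.52 to 28.8, and the counts for the list are also given without them. All 8 skeletal muscle markers were present. Their summed level was 192605 to 213189 CPM in WT, 170554 to 192156 CPM in hetL1002P and 155987 to 171060 CPM in hetX753, so that it was lower in every carrier library than in every WT library. Lymphocyte markers (4 of 4 in the table, 2 tested) summed to 1.35 to 2.27 CPM in WT, 1.66 to 3.90 CPM in hetL1002P and 2.86 to 3.59 CPM in hetX753. Of the 3 erythroid markers, Hba-a1 and Hbb-bs were at 0 throughout. The list summed to 4.34 to 7.2 CPM in WT, 4.06 to 11.4 CPM in hetL1002P and 4.57 to 7.87 CPM in hetX753, all from Alas2. The 0 values therefore do not show that erythroid cells were absent. The part of the lower muscle marker level in the results that follow was not tested, and in bulk muscle fewer cells of a type and less RNA per cell cannot be told apart. Bub1b had 21, 11 and 16 counts in WT 1 to 3, 10, 9 and 2 in hetL1002P 1 to 3 and 8, 8 and 5 in hetX753 1 to 3, lower in all 6 carrier libraries, with an adjusted p of 0.177 in hetX753 and 0.579 in hetL1002P.

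In hetX753 muscle, 3 of the 48 tested neighbours of Bub1b were higher than in WT and none was lower: Pla2g4e, Gm14085 and Trpm7. The same test called 66 of all 12989 genes, or 0.508%. DESeq2 called 7 listed genes in this comparison, of 640 (4.93%) in all: Pla2g4e, Trpm7, Mapkbp1, Zfp106, Eif2ak4 and Ino80 higher and Ivd lower. In hetL1002P muscle no listed gene passed, and no gene of the whole table did (0%), with 1034 genes of the table at an unadjusted p under 0.05. DESeq2 and limma-voom each called 2 listed genes there, Pla2g4e and Gm14085, of 5 and 2 called in all. With both carriers averaged and set against WT, Pla2g4e and Gm14085 passed, and they were the only genes of the 12989 to do so (0.0154%). Gm14085 passed the low-count filter only through its carrier libraries, so it had to differ once it was tested; without it the counts are 2 of 47 in hetX753 and 1 for both carriers. Both carrier comparisons use the same 3 WT libraries, so they are not independent of each other. In hetL1002P, 18 listed genes had an unadjusted p under 0.05, 14 higher and 4 lower, or 37.5% of those tested, against 7.96% of all genes. In hetX753 there were 19, 16 higher and 3 lower, or 39.6% against 20.9% of all genes. Gm14085, whose outcome the filter fixed, is counted in both the 18 and the 19. The 90 tested genes of the same interval that are not on the list had 13.3% in hetL1002P and 17.8% in hetX753, the second of which is below the share of all genes.

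These shares depend on the libraries. In hetL1002P, 1034 genes of the table had an unadjusted p under 0.05 with all libraries, 2600 without both WT 3 and hetL1002P 3, 3566 without hetL1002P 3 and 306 without WT 3. The listed share was 45.8% against 19.8% of all genes without both, 45.8% against 27% without hetL1002P 3, and 18.8% against 2.32% without WT 3. Without hetL1002P 1 or hetL1002P 2 it was 16.7%, against 2.82% and 3.09% of all genes, and without WT 1 it was 37.5% against 13.2%. In hetX753 it was 39.6% against 22.6% without both, and without each library in turn it ran from 27.1% (without WT 2 or WT 3, with 17.4% and 12.7% of all genes) to 45.8% (without hetL1002P 3, with 27.8%). For the interval genes not on the list the shares without both were 17.8% in hetL1002P and 22.2% in hetX753, both under those of all genes. These values, the ones of the next paragraphs without libraries and those by window were added after the data were seen.

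The median log2 fold change of the listed genes was 0.20 in hetX753, where that of all genes was 0.00, and 0.15 in hetL1002P, where that of all genes was 0.01. Without both WT 3 and hetL1002P 3 the medians of the listed genes were 0.18 and 0.15, and those of all genes 0.00 and 0.01. Of the 48, 32 lay above 0 in hetX753 and 31 in hetL1002P, and without both libraries 34 and 33. Most of these differences were small, with a median size of 0.28 in hetX753 (all genes 0.24) and 0.25 in hetL1002P (all genes 0.19).

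Many listed genes had groups that did not overlap, most of them with an adjusted p above the threshold. In 24 listed genes (50%) the 3 hetX753 libraries all lay above or all below the 3 WT libraries, 18 above and 6 below; 32.5% of all tested genes did so. In hetL1002P this held for 15 listed genes (31.2%), 11 above and 4 below, against 9.44% of all genes. Without both WT 3 and hetL1002P 3 these counts became 28 (58.3%, against 41% of all genes) in hetX753 and 36 (75%, against 54.8%) in hetL1002P, since fewer libraries overlap less often. Without hetL1002P 3 alone the hetL1002P count was 32 (66.7%, against 48.7%), and without WT 1 it was 23 (47.9%, against 24.4%). All 6 carrier libraries lay beyond the WT range for 11 listed genes (22.9%), against 4.45% of all genes. Of these, 8 had every carrier library above WT (background 2.92%): Ino80, Mapkbp1, Ehd4, Pla2g4e, Tmem87a, Capn3, Map1a and Gm14085. The other 3, Ivd, Chp1 and Lrrc57, had every carrier library below WT (background 1.53%). Without Gm14085, which the filter admitted through its carriers, the 8 and the 11 are 7 and 10. Gm14085 is also counted in the 24 of hetX753 and the 15 of hetL1002P. The count of 11 depends on the libraries and the background moves with it: it became 24 without both WT 3 and hetL1002P 3 (25.9% of all genes), 22 without hetL1002P 3 (22.6%) and 19 without WT 1 (14.8%). With library totals as the only scaling it was 7 (4.20%).

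**Figure D1:**
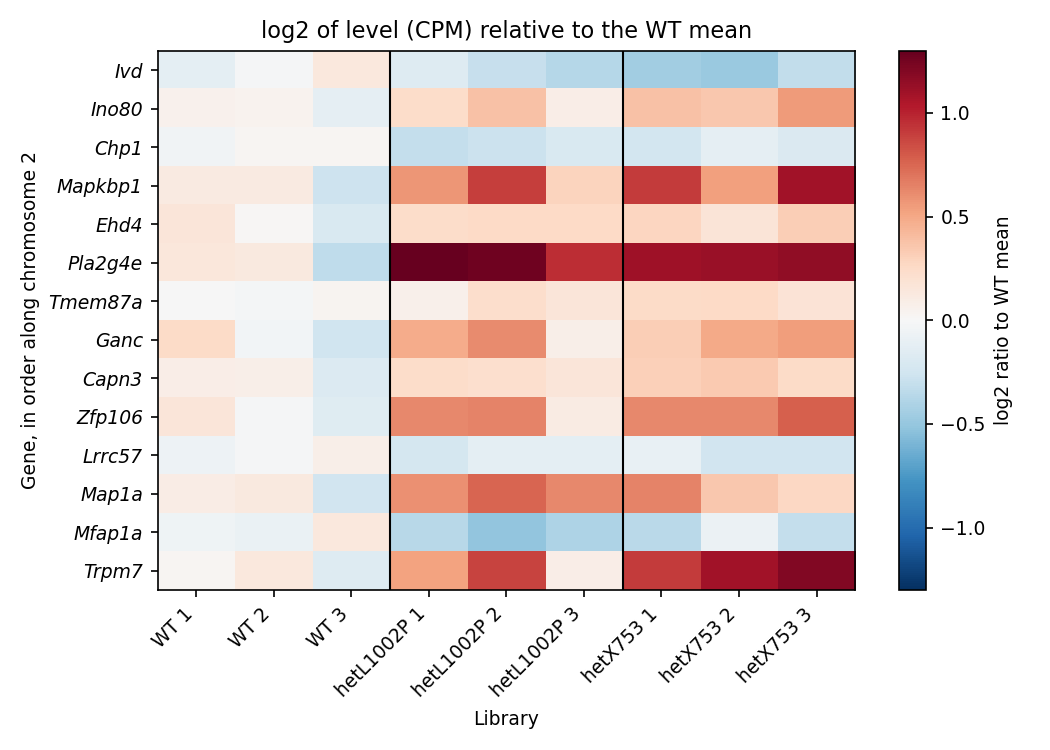
Level of 14 listed genes in each of the 9 libraries (columns), as the log2 ratio of CPM to the WT mean of that gene (colour), in order along chromosome 2 (rows); Gm14085 is left out because its WT mean is close to 0. Pla2g4e has the strongest colour of the rows in 5 of the 6 carrier libraries, Trpm7 being stronger in hetX753 3, and Ivd, Chp1, Lrrc57 and Mfap1a are on the low side of WT in carriers.

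Pla2g4e had the largest fold change against WT of the tested listed genes after Gm14085, in both carriers. It encodes cytosolic phospholipase A2 epsilon, a calcium-dependent N-acyltransferase that makes precursors of N-acylethanolamine lipids, and it lies at chr2:120166412-120245630 on the minus strand, 1.586 Mb from Bub1b. Pla2g4e read 29.3, 28.9 and 21 CPM in WT 1 to 3, 66.3, 63.2 and 51.3 CPM in hetL1002P 1 to 3, and 56.5, 57.3 and 58.8 CPM in hetX753 1 to 3. Every carrier library was far above every WT library, and the carriers' ranges overlapped each other. The means were 26.4 ± 4.68, 60.3 ± 7.89 and 57.5 ± 1.13 CPM (SD, n = 3 each). Pla2g4e rose 2.18-fold in hetX753 (log2 1.12, SE 0.15, adjusted p = 0.0195) and 2.23-fold in both carriers together (log2 1.16, SE 0.13, adjusted p = 0.0334). In hetL1002P alone the fold was 2.28 (log2 1.19, SE 0.15), with an adjusted p of 0.0802 and an unadjusted p of 7.2e-06. The size was as large there, while the adjusted p was above the threshold.

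The direction for Pla2g4e against WT held in every fit that was run, and the call depended on which libraries were in it. In hetX753 the log2 fold change stayed between 0.98 and 1.23 over all alternatives. The call was lost without WT 1 (adjusted p = 0.0617), WT 2 (0.0552), hetX753 2 (0.0520) or hetX753 3 (0.0914), and was kept without each of the other 5 libraries. For both carriers together it was lost with library totals as the only scaling (0.183), with a filter of at least 1 CPM in 3 libraries (0.0578), and without WT 1 (0.169), WT 2 (0.142), WT 3 (0.1), hetL1002P 1 (0.125), hetX753 1 (0.0582) or hetX753 3 (0.102). In hetL1002P it passed without hetL1002P 3 (0.0242), without both WT 3 and hetL1002P 3 (0.00195), with DESeq2 (9.6e-10), with limma-voom (0.0483) and with no low-count filter (0.0190). Its exons overlap 153 bases of Gm13997 on the same strand. The other cytosolic phospholipase A2 genes of the cluster, Pla2g4b, Pla2g4d and Pla2g4f, had at most 3, 1 and 0 counts in any library, so Pla2g4e was the member of the cluster that muscle expressed at a level that could be compared.

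Gm14085 was close to silent in WT and present in every carrier library. RefSeq names it Slc28a2b, a member of the concentrative nucleoside transporter family, at chr2:122484941-122528040 on the plus strand next to Slc28a2. Gm14085 had 0, 1 and 0 counts in WT 1 to 3, 24, 18 and 17 counts in hetL1002P 1 to 3, and 32, 17 and 22 counts in hetX753 1 to 3. The groups are far apart in counts, although the level in carriers is low, with a mean of 0.799 ± 0.149 CPM for hetL1002P and of 0.945 ± 0.247 CPM for hetX753 (SD, n = 3 each). From the summed counts, 59 against 1, the hetL1002P level was 58.6 times that of WT, with an exact 95% interval of 10.1 to 2355 that covers counting error only. For hetX753, 71 counts against 1, the ratio was 70.1 with an interval of 12.2 to 2806. The adjusted p was 0.0168 in hetX753, 0.0802 in hetL1002P and 0.0334 for both carriers. Gm14085 passed the low-count filter only through its carrier libraries. Its p-values and calls, here and in the other fits, are therefore a description and no independent support for a difference.

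The Gm14085 call in hetX753 was lost without WT 1 (adjusted p = 0.0700), WT 3 (0.0658) or hetX753 3 (0.0570). For both carriers it was lost with library totals (0.0846), with the replicate block (0.0592), without both WT 3 and hetL1002P 3 (0.0534), and without WT 1 (0.169), WT 2 (0.142), WT 3 (0.298), hetL1002P 1 (0.125), hetX753 1 (0.0582) or hetX753 3 (0.102). Of the 4947 50-base words in its transcripts, 1498 (30.3%) also occur in Slc28a2, and how reads that map to both were counted is not given in the sources used here. Slc28a2 itself, a purine nucleoside transporter, read 8.02, 6.66 and 6.87 CPM in WT 1 to 3, 6.69, 7.44 and 3.98 CPM in hetL1002P 1 to 3 and 6.93, 5.88 and 7.48 CPM in hetX753 1 to 3. Its groups overlap, and its log2 fold change was -0.09 in hetX753 and -0.25 in hetL1002P.

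**Figure D2:**
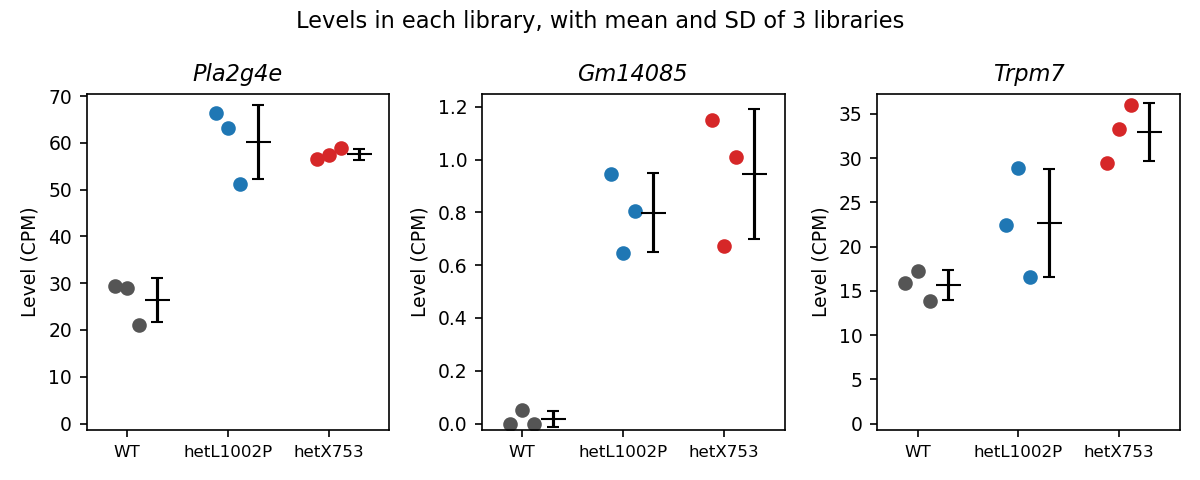
Level (CPM) of Pla2g4e, Gm14085 and Trpm7 in each library (points), with the mean and SD of 3 libraries per genotype (bars). Carrier and WT points do not overlap for Pla2g4e and Gm14085, while for Trpm7 hetL1002P 3 at 16.6 CPM lies below WT 2 at 17.2 CPM.

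Trpm7 rose in hetX753, and its hetL1002P libraries lay between those of WT and hetX753 in mean. It encodes an ion channel fused to a kinase that carries magnesium and calcium, and lies at chr2:126791558-126876261 on the minus strand. Trpm7 read 15.9, 17.2 and 13.9 CPM in WT 1 to 3, 22.5, 28.9 and 16.6 CPM in hetL1002P 1 to 3, and 29.5, 33.3 and 36.0 CPM in hetX753 1 to 3. The hetX753 libraries were above all 6 others, while hetL1002P 3 fell within the WT range. Trpm7 was 2.10-fold higher in hetX753 than in WT (log2 1.07, SE 0.19, adjusted p = 0.0388) and 1.44-fold in hetL1002P (log2 0.53, SE 0.19, adjusted p = 0.579). Set against hetL1002P, the hetX753 level had a log2 fold change of 0.54 (SE 0.18, unadjusted p = 0.0141, adjusted p = 0.439), so the difference between the alleles did not pass. The call in hetX753 was lost with library totals (adjusted p = 0.0869) and without WT 1 (0.102), WT 2 (0.128), WT 3 (0.147), hetL1002P 1 (0.0749), hetX753 1 (0.0819), hetX753 2 (0.130) or hetX753 3 (0.184), and was kept without hetL1002P 2 (0.0237) or hetL1002P 3 (0.00635).

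Same-numbered WT and hetL1002P libraries deviated from their group means together, with r of 0.285, 0.360 and 0.516. For same-numbered pairs with hetX753, r ran from -0.279 to 0.164. Differently numbered pairs of WT and hetL1002P ran from -0.454 to 0.198. Deviations from a mean of 3 libraries sum to 0, so the r values are not separate signs of pairing. When these 2 genotypes were fitted alone with the replicate number as a paired block, 10 of the listed genes passed in hetL1002P against WT: Mga, Mapkbp1, Pla2g4e, Zfp106, Tubgcp4, Map1a, Ppip5k1, B2m, Gm14085 and Trpm7. That fit called 635 of 12684 genes (5.01%). Among them Pla2g4e had an adjusted p of 0.000218, Gm14085 of 0.0157, Map1a of 0.0311, Mapkbp1 of 0.0376, Zfp106 of 0.0392 and Trpm7 of 0.0416. The strongest pair in this agreement is WT 3 with hetL1002P 3, the libraries that stand apart. Without a block the same 2 genotypes alone gave 0 calls, and the fit without both of those libraries gave 1, Pla2g4e.

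Of the 9 tested signalling genes of the list, only Pla2g4e passed, in hetX753 (0.508% of all genes) and for both carriers (0.0154%). The median log2 fold change of the 9 was 0.38 in hetX753 and 0.44 in hetL1002P, higher than the 0.00 and 0.01 of all genes. Most of the 9 have exons longer than 4475 bases, and all tested genes of such length had a median of 0.14 in both carriers. Mapkbp1, a scaffold that binds JNK kinases, lies at chr2:119972390-120027403. Mapkbp1 read 8.52, 8.52 and 6.53 CPM in WT 1 to 3, 11.7, 14.6 and 9.63 CPM in hetL1002P 1 to 3, and 14.8, 11.4 and 16.8 CPM in hetX753 1 to 3. All carrier libraries were above WT, with a log2 fold change of 0.86 (SE 0.20, adjusted p = 0.0879) in hetX753 and 0.61 (SE 0.20, adjusted p = 0.579) in hetL1002P. It passed in hetX753 with DESeq2 (0.00521) and on the compared genotypes alone (0.0475).

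Chp1, a calcium-binding partner of sodium-proton exchangers at chr2:119547707-119587024, lay on the other side. Chp1 read 84.1, 88.1 and 88.4 CPM in WT 1 to 3, 70.0, 71.4 and 75.8 CPM in hetL1002P 1 to 3, and 73.7, 79.9 and 76.3 CPM in hetX753 1 to 3. Every carrier library was below WT, by a small margin: log2 -0.18 (SE 0.09) in hetX753 and -0.26 (SE 0.09) in hetL1002P, with adjusted p of 0.284 and 0.579. Of the remaining tested signalling genes, Eif2ak4, the kinase GCN2 that senses amino acid shortage, had the largest log2 fold change in hetX753, 0.83 (SE 0.22, adjusted p = 0.117), and 0.28 (SE 0.22) in hetL1002P. Spred1, an inhibitor of Ras-ERK signalling, had 0.23 and 0.54. Ttbk2, a kinase needed for cilia, had 0.46 in both, and Ppip5k1, which makes inositol pyrophosphates, 0.38 and 0.44. Ttbk2 shares 3409 exon bases with Cdan1 on the same strand, so the division of reads between them is uncertain. Dll4, a Notch ligand of endothelium, and the receptor kinase Tyro3 had -0.25 and -0.09 in hetX753 and -0.18 and 0.04 in hetL1002P.

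Apart from Trpm7, the genes of protein turnover, apoptosis and antigen presentation did not pass against WT in the fit of all libraries. Capn3, a calpain whose loss causes limb-girdle muscular dystrophy, lies at chr2:120463593-120504919. Capn3 read 152, 151 and 127 CPM in WT 1 to 3, 169, 167 and 160 CPM in hetL1002P 1 to 3, and 178, 181 and 170 CPM in hetX753 1 to 3. The genotypes were ordered without overlap, WT lowest and hetX753 highest, but the log2 fold changes were only 0.30 (SE 0.11, adjusted p = 0.172) and 0.20 (SE 0.11, adjusted p = 0.579), and neither passed. Its exons overlap Ganc by 386 bases on the same strand. Ubr1, a ubiquitin ligase of the N-degron pathway, had log2 fold changes of 0.46 in hetX753 and 0.44 in hetL1002P. B2m, the light chain of MHC class I, had -0.21 and -0.36, with WT 2 at 90.8 CPM above all other libraries (50.2 to 66.6 CPM), and Bmf, an apoptosis gene of the BH3-only type, had 0.11 and -0.12. Among macrophage markers (5 of 6 in the table), the summed level was 32.3 to 55.9 CPM in WT, 29.9 to 63.1 CPM in hetL1002P and 32.5 to 36.6 CPM in hetX753, and its part in the B2m values was not tested.

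Of the 12 tested genes of chromatin, transcription and RNA, none passed in any of the 4 comparisons, and 4 in hetX753 and 3 in hetL1002P had an unadjusted p under 0.05 (33.3% and 25%, against 20.9% and 7.96% of all genes). Their median log2 fold change was 0.20 in hetX753 and 0.11 in hetL1002P. Zfp106, an RNA-binding zinc finger protein needed to maintain motor neurons and muscle, had 120 CPM per kb of exon. With the exonic lengths used here, this was the highest level per length of the listed genes. It lies at chr2:120506820-120563864. Zfp106 read 1049, 929 and 847 CPM in WT 1 to 3, 1456, 1477 and 1013 CPM in hetL1002P 1 to 3, and 1452, 1451 and 1613 CPM in hetX753 1 to 3. Only hetL1002P 3 came within the WT range. The log2 fold change was 0.68 (SE 0.16, adjusted p = 0.0894) in hetX753 and 0.48 (SE 0.16, adjusted p = 0.579) in hetL1002P, and in hetX753 it passed with DESeq2 (0.00322), on the compared genotypes alone (0.0291) and without both WT 3 and hetL1002P 3 (0.0167). The library kit does not mark strand, and 2719 bases of its exons are shared with Gm26899 on the other strand, so reads of the overlap cannot be told apart.

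Ino80, the ATPase of a chromatin remodelling complex at chr2:119373042-119478685, had every carrier library above WT. Ino80 read 18.9, 18.8 and 16.8 CPM in WT 1 to 3, 21.5, 23.7 and 19.3 CPM in hetL1002P 1 to 3, and 23.7, 23.1 and 26.7 CPM in hetX753 1 to 3. Its log2 fold change was 0.43 (SE 0.12, adjusted p = 0.126) in hetX753 and 0.24 (SE 0.12, adjusted p = 0.579) in hetL1002P. Mfap1a, a spliceosome protein at chr2:121492681-121506656, was on the low side. Mfap1a read 13.7, 13.4 and 15.6 CPM in WT 1 to 3, 11.1, 9.99 and 10.8 CPM in hetL1002P 1 to 3, and 11.2, 13.5 and 11.5 CPM in hetX753 1 to 3. The hetL1002P libraries were below all WT libraries, and hetX753 2 overlapped them. The log2 fold change was -0.42 (SE 0.13, adjusted p = 0.579) in hetL1002P and -0.24 (SE 0.13, adjusted p = 0.304) in hetX753; 49.9% of its 50-base words also occur in Mfap1b, so the division of reads between them is uncertain.

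Dnajc17, a J-domain protein linked to splicing, had the lowest log2 fold change of the list, -0.74 (SE 0.23, adjusted p = 0.138) in hetX753 and -0.47 (SE 0.23, adjusted p = 0.579) in hetL1002P. Dnajc17 read 7.04, 7.07 and 8.41 CPM in WT 1 to 3, 5.04, 3.95 and 7.35 CPM in hetL1002P 1 to 3, and 5.25, 4.14 and 4.02 CPM in hetX753 1 to 3. The hetX753 libraries were all below WT and hetL1002P 3 was not. Mga, a Max-binding repressor and the longest gene of the list by exonic length, had 0.72 in hetX753 and 0.61 in hetL1002P. The heterochromatin protein Bahd1, the Paf1-complex factor Rtf1, the RNA polymerase factor Rpap1, the repair protein Trp53bp1, the phosphatase Ctdspl2, Cdan1 and Ccndbp1 ran from -0.08 to 0.34 in hetX753 and from -0.02 to 0.30 in hetL1002P.

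No gene of the secretory pathway, endosome and lysosome (9 tested) passed, and 3 in hetX753 (33.3%, all genes 20.9%) and 1 in hetL1002P (11.1%, all genes 7.96%) had an unadjusted p under 0.05, with a median log2 fold change of 0.09 in hetX753 and 0.02 in hetL1002P. Ehd4, an ATPase of endocytic recycling at chr2:120089487-120154575, separated narrowly. Ehd4 read 33.1, 30.1 and 26.0 CPM in WT 1 to 3, 35.0, 35.5 and 35.7 CPM in hetL1002P 1 to 3, and 36.2, 33.5 and 37.2 CPM in hetX753 1 to 3. The lowest carrier library, hetX753 2, was just above the highest WT library, WT 1. The log2 fold change was 0.26 (SE 0.11, adjusted p = 0.226) in hetX753 and 0.25 (SE 0.11, adjusted p = 0.579) in hetL1002P.

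Tmem87a, a Golgi membrane protein at chr2:120355309-120404154, also separated narrowly. Tmem87a read 37.4, 36.9 and 38.4 CPM in WT 1 to 3, 39.4, 43.9 and 42.0 CPM in hetL1002P 1 to 3, and 44.7, 45.1 and 42.6 CPM in hetX753 1 to 3. All carrier libraries were above WT, by a log2 fold change of 0.23 (SE 0.09, adjusted p = 0.206) in hetX753 and 0.15 (SE 0.09, adjusted p = 0.582) in hetL1002P. Among the others of this group, the SNARE Snap23 had 0.39 and 0.27, the tethering subunits Vps39 and Vps18 had 0.09 and -0.06 in hetX753 and 0.25 and -0.06 in hetL1002P, and the disulfide isomerase Pdia3 had -0.04 and 0.02. Srp14, a subunit of the signal recognition particle, had -0.35 and -0.25. Spg11, needed for lysosome renewal, and Zfyve19 had 0.15 and 0.06 in hetX753 and -0.01 and -0.16 in hetL1002P.

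The 6 metabolic and mitochondrial genes split around 0, with a median log2 fold change of -0.11 in hetX753 and 0.09 in hetL1002P. None passed, and 3 in hetX753 (50%, all genes 20.9%) and 2 in hetL1002P (33.3%, all genes 7.96%) had an unadjusted p under 0.05. Ivd, isovaleryl-CoA dehydrogenase of leucine breakdown, is among the closest neighbours, 0.253 Mb from Bub1b at chr2:118861959-118882909. Ivd read 167, 181 and 201 CPM in WT 1 to 3, 163, 149 and 142 CPM in hetL1002P 1 to 3, and 134, 131 and 147 CPM in hetX753 1 to 3. Every carrier library was below WT, though hetL1002P 1 missed WT 1 by little. The log2 fold change was -0.41 (SE 0.11, adjusted p = 0.122) in hetX753 and -0.27 (SE 0.11, adjusted p = 0.579) in hetL1002P; with DESeq2 the hetX753 value passed (0.0150).

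Ganc, a neutral alpha-glucosidase of glycogen breakdown at chr2:120403896-120460866, shares exon bases with Capn3 on its own strand and 209 bases with Tmem87a on the other. Ganc read 25.0, 20.5 and 17.6 CPM in WT 1 to 3, 29.4, 32.2 and 22.2 CPM in hetL1002P 1 to 3, and 26.3, 29.5 and 30.6 CPM in hetX753 1 to 3. The hetX753 libraries were above WT, and hetL1002P 3 overlapped it. The log2 fold change was 0.45 (SE 0.17, adjusted p = 0.181) in hetX753 and 0.41 (SE 0.17, adjusted p = 0.579) in hetL1002P. Ndufaf1, an assembly factor of respiratory complex I, had -0.42 and -0.24, while Sord, sorbitol dehydrogenase, stood at 0.04 and 0.00. Rmdn3, a tether between endoplasmic reticulum and mitochondria, had 0.30 and 0.18, and Chst14, a dermatan sulfotransferase, -0.25 and 0.25.

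Of the microtubule genes 3 were tested and none passed, and 1 in hetX753 and 2 in hetL1002P had an unadjusted p under 0.05, where 20.9% and 7.96% of all genes did. Map1a, a microtubule-associated protein best known from neurons, lies at chr2:121289590-121310832. Map1a read 11.7, 11.9 and 9.19 CPM in WT 1 to 3, 16.5, 18.5 and 16.9 CPM in hetL1002P 1 to 3, and 17.1, 13.9 and 13.2 CPM in hetX753 1 to 3. All carrier libraries were above WT, and hetL1002P was the higher carrier in mean, 17.3 ± 1.07 against 14.7 ± 2.11 CPM (SD, n = 3 each). The log2 fold change was 0.66 (SE 0.15, adjusted p = 0.579) in hetL1002P and 0.43 (SE 0.15, adjusted p = 0.162) in hetX753, and between the carriers -0.23 (SE 0.15, adjusted p = 0.763). Map1a and Ppip5k1 overlap by 272 exon bases on opposite strands. Tubgcp4, of the gamma-tubulin ring complex, had 0.50 in hetX753 and 0.73 in hetL1002P, and Haus2, of the augmin complex, 0.06 and -0.05. Tubgcp4 shares 2130 exon bases with Trp53bp1 on the other strand, so the division of reads between them is uncertain. Lrrc57, whose role is not given here, completes the genes with all carriers on the same side of WT. Lrrc57 read 12.2, 12.6 and 13.4 CPM in WT 1 to 3, 10.9, 11.7 and 11.7 CPM in hetL1002P 1 to 3, and 11.9, 10.7 and 10.7 CPM in hetX753 1 to 3. The gap between the groups was narrow, with log2 fold changes of -0.20 (SE 0.12) and -0.16 (SE 0.12) and adjusted p of 0.329 and 0.619. Serf2 and Tmem62 had -0.34 and 0.23 in hetX753 and -0.30 and 0.03 in hetL1002P. Serf2 shares 1893 exon bases with Hypk on its own strand and 2296 with Serinc4 on the other, so its reads are uncertain too.

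The 33 tested genes of the list that are neither past the threshold nor chosen by the other parts of the naming rule, Dnajc17 and Eif2ak4 among them, ran from -0.74 to 0.83 in hetX753 and from -0.47 to 0.73 in hetL1002P. Among these 33, hetX753 was apart from WT in 10 (30.3%, against 32.5% of all genes) and hetL1002P in 3 (9.09%, against 9.44%), shares close to the background. The naming rule took out every gene with both carriers apart from WT on the same side, which lowers these shares by construction.

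The separation of carriers from WT was densest just after Bub1b towards the end of the chromosome. Between 0 and 2.5 Mb on that side, 11 of 40 tested genes (27.5%), listed or not, had all 6 carrier libraries beyond the WT range, 8 above and 3 below. The share was 12.9% of 31 genes from 2.5 to 5 Mb, 10.5% of 38 genes from 5 to 10 Mb and 4.62% of 65 genes from 10 to 20 Mb. Gm14085, which the filter admitted through its carriers, is among the 4 genes apart from 2.5 to 5 Mb. It is also counted in the share of the whole interval below. Towards the start of the chromosome it was 0 of 6 genes within 2.5 Mb, 0 of 8 from 2.5 to 5 Mb and 6.67% of 15 from 5 to 10 Mb, windows too thinly filled to compare. Over the whole interval the share was 14.5% of 138 genes, and it was 10% of the 90 that are not on the list. Elsewhere on chromosome 2 it was 4.98% of 884 genes, and the other chromosomes ran from 2.86% (chromosome 13) to 7.32% (X). These are shares of far longer stretches, and windows of 2.5 Mb on other chromosomes were not computed. How unusual the 27.5% is for a window of that size is therefore not known. Without both WT 3 and hetL1002P 3 the window from 0 to 2.5 Mb had 60% of genes apart where 25.9% of all genes were, but the windows from 2.5 to 5 Mb and from 5 to 10 Mb had 25.8% and 34.2%. Without hetL1002P 3 the 3 windows had 50%, 25.8% and 26.3% (all genes 22.6%), and without WT 1 42.5%, 25.8% and 18.4% (all genes 14.8%). In these fits the nearest window stands well above all genes, and the next windows are close to the background or above it by less. Neighbouring genes share reads where they overlap and are not independent of each other, so these shares are a description with no test.

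**Figure D3:**
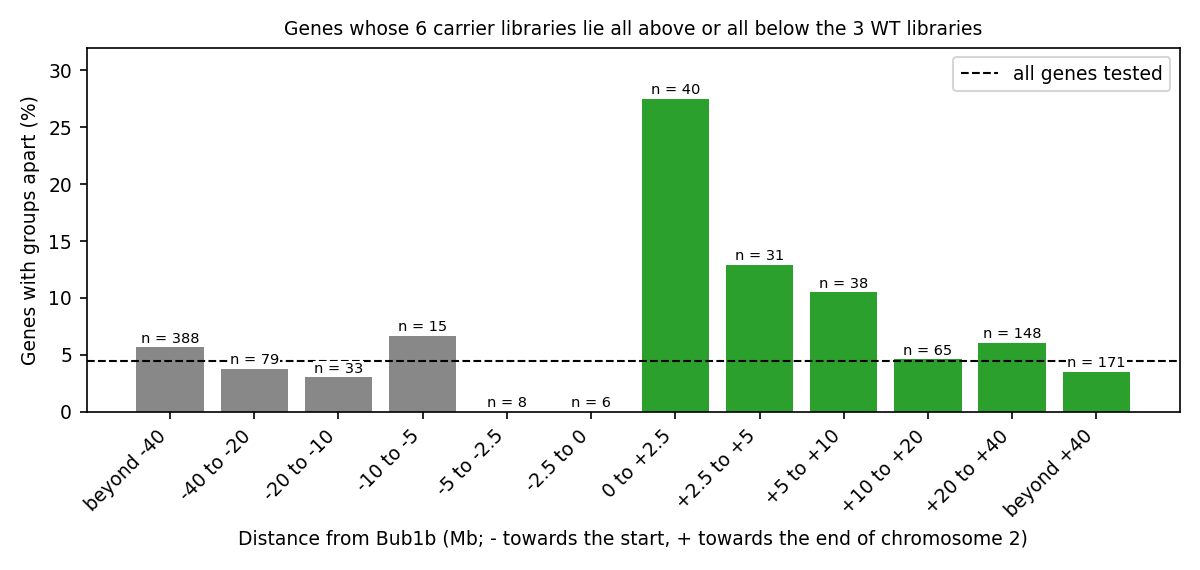
Share of tested genes (%) whose 6 carrier libraries lie all above or all below the 3 WT libraries, by distance from Bub1b along chromosome 2 (Mb; grey towards the start, green towards the end; n, genes tested); the dashed line is the 4.45% of all tested genes. The window from 0 to 2.5 Mb towards the end stands highest at 27.5%.

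**Figure D4:**
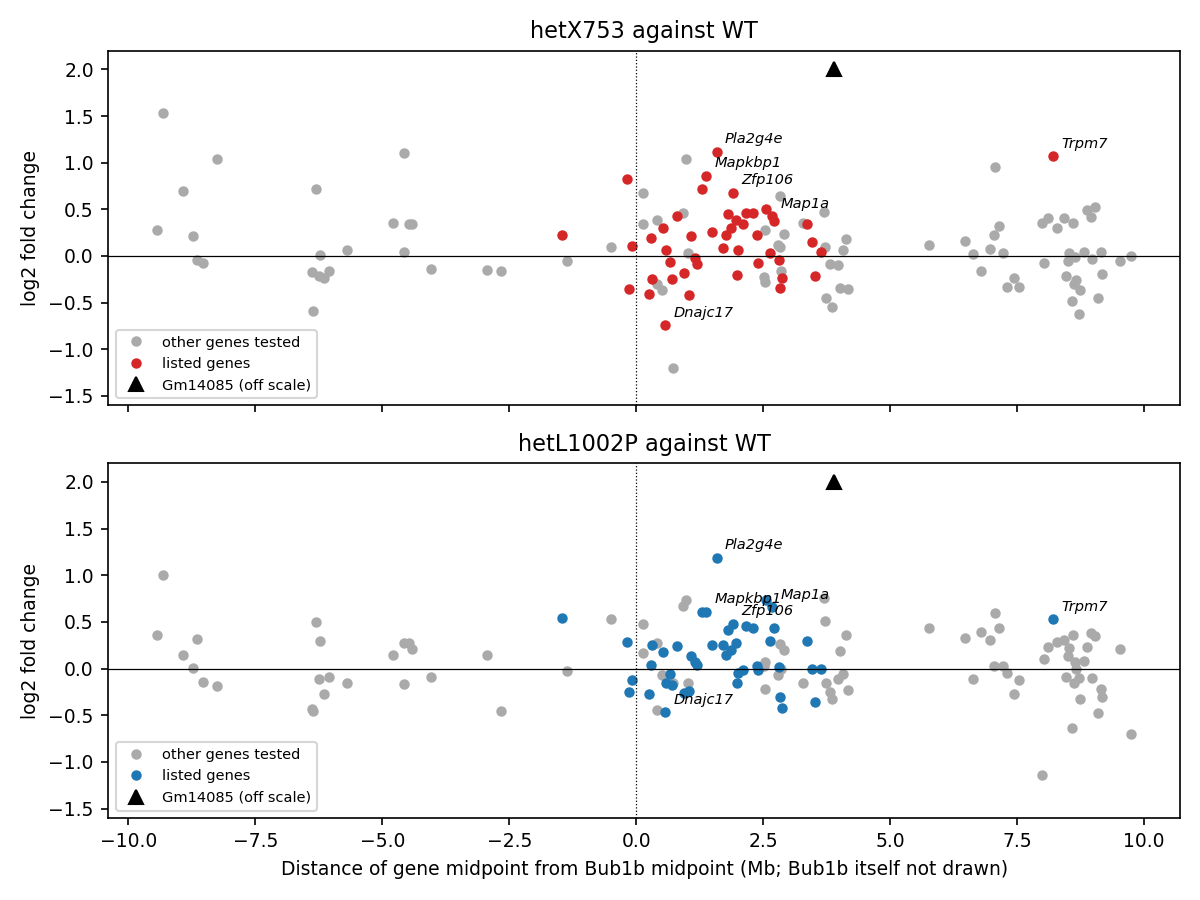
Log2 fold change against WT of tested genes within 10 Mb of Bub1b (points) by distance between gene midpoints (Mb), with listed genes in colour and other genes in grey; Gm14085 is drawn at the upper edge because its fitted value is off scale. Positive and negative values are mixed along the interval in both panels, and Pla2g4e is the highest listed point on scale in each.

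Gene length moved with the direction of these differences. Over all tested genes, those with exons longer than 4475 bases had a median log2 fold change of 0.14 in both carriers and shorter genes one of -0.14 in hetX753 and -0.11 in hetL1002P. The listed genes followed the same pattern. The 30 longer ones had a median of 0.34 in hetX753 (25 above 0) and 0.29 in hetL1002P (24 above 0), and the 18 shorter ones -0.13 and -0.10 (7 above 0 in each). Serf2 is among the longer ones by an exonic length of 5455 bases, although its RefSeq span, chr2:121449198-121453420, is under 4475 bases. With the length trend of each library removed, an alternative chosen after the data were seen, Pla2g4e had a log2 fold change of 1 in hetX753 (adjusted p = 0.00887) and 1.07 in hetL1002P (0.00910). Gm14085, which the filter admitted through its carriers, kept its hetX753 call (0.0108). Trpm7 had 0.82 in hetX753 (0.0200) and 0.27 in hetL1002P (0.748). In that fit 10 of the listed genes had all 6 carrier libraries beyond WT, against 3.90% of all genes.

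**Figure D5:**
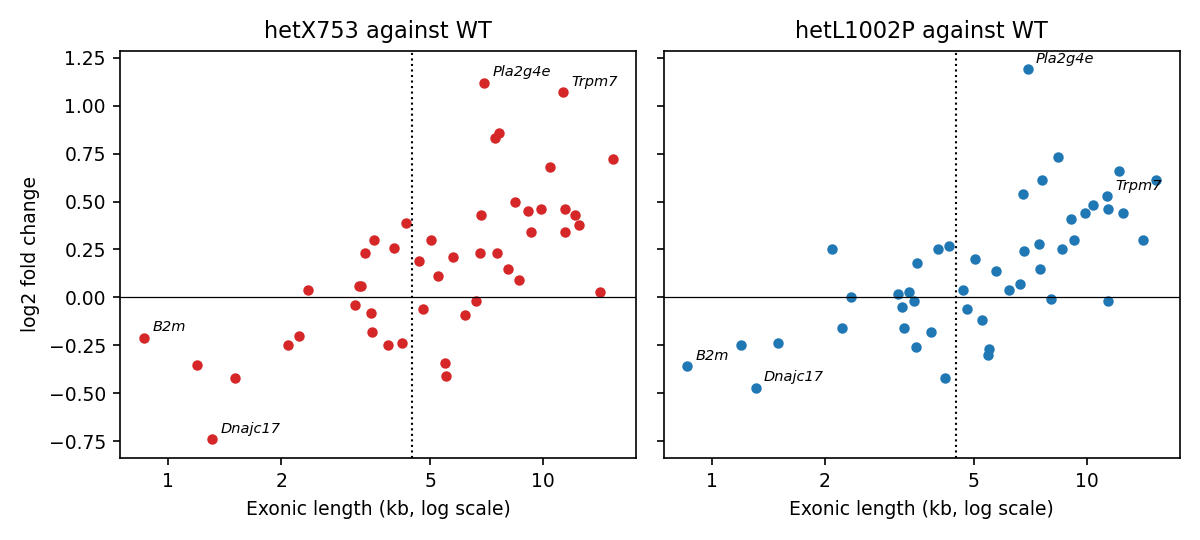
Log2 fold change against WT of the listed genes (points, Gm14085 left out) by exonic length (kb, log scale), with a dotted line at the median length of all tested genes, 4475 bases. Most points right of the line are above 0 and most points left of it below, in both panels.

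The listed genes did not separate the carriers from each other beyond the background. No listed gene passed between hetX753 and hetL1002P with edgeR's quasi-likelihood test, where 15 genes of the table did (0.115%); DESeq2 and limma-voom gave 0 listed genes as well. At an unadjusted p under 0.05 there were 2 (4.17% of the listed genes, below the 8.24% of all genes), Eif2ak4 (log2 0.55, SE 0.21, adjusted p = 0.515) and Trpm7, both higher in hetX753. The libraries of the carriers did not overlap for 7 of 48 listed genes (14.6%), and for 14.4% of all genes, so the share among the listed genes was near the background. For Pla2g4e the difference between carriers was -0.07 (SE 0.14) and for Gm14085 0.25 (SE 0.37), and a p that misses the threshold does not show that the alleles act alike.

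Levels per length spread widely over the list. After Zfp106 the highest were B2m at 75.6, Srp14 at 73.9, Serf2 at 51.7, Sord at 35.5 and Capn3 at 32.2 CPM per kb of exon, as means of all libraries. The exonic length used for Serf2, 5455 bases, is longer than its RefSeq span, chr2:121449198-121453420. Its level per kb may therefore be too low, and its rank, also relative to Zfp106, is uncertain. Pla2g4e stood at 6.90 and Trpm7 at 2.10 CPM per kb. Tyro3 at 0.0795 was the lowest gene that was tested, and Gm14085 at 0.118 was next above it.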

How the data were processed

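RNA of whole gastrocnemius was made into libraries with the TruSeq RNA kit v2 (per the labels' protocols) for 3 libraries of each of 3 genotypes. The authors deposited whole-number counts per gene symbol, with no normalization. Per the submitters' processing notes, which state neither roles nor order, the tools were featureCounts 1.4.6 (Subread), Bowtie2 2.2.6 and TopHat2 2.0.14, on mm10; no source used here gives the annotation, strand setting, filters or handling of multi-mapped reads. The listed genes, role lists, tests and rule for named genes were chosen with earlier results of these data known. The rule gave library values for genes past the threshold, genes with all 6 carrier libraries beyond WT, Pla2g4e, Gm14085, Map1a and Trpm7, and in each role list the gene with the smallest p for each carrier.

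The fit used edgeR 4.0.16 in R 4.3.3: filterByExpr on genotype, TMM, robust quasi-likelihood fit of genotype alone (6 residual degrees of freedom), 4 contrasts, Benjamini-Hochberg adjustment over 12989 genes. The contrast of both carriers takes the mean of hetX753 and hetL1002P against WT. The script was tested on simulated data. The titles number the replicates without saying what a number means. Same-numbered libraries correlated above 0.1 in every WT and hetL1002P pair, but not in every pair with hetX753 (r from -0.279 to 0.164). Positions and promoters come from RefSeq on GRCm38.p6 (99.31% of symbols matched) and exonic lengths from GENCODE M21 (98.3%). Alternatives were DESeq2 1.42.0, limma-voom (limma 3.58.1), other scalings and filters, the block, fewer genotypes and each library left out.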

Additional observations from a re-analysis of the deposited data

How the results depend on the processing

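The listed genes called in hetX753 against WT (3) became 7 with DESeq2 (640 of all genes) and 5 on the compared genotypes alone (254). Genes called within 10 Mb of Bub1b (3) became 11, 7 and, without both WT 3 and hetL1002P 3, 5. These fits called 4.93%, 2% and 2.58% of all genes, against 0.508% with edgeR on all 9 libraries. In hetL1002P against WT both counts (0) became 2 with DESeq2, limma-voom or no low-count filter (5, 2 and 2 genes in all). They became 1 with the length trend removed or without both libraries (1 and 2 genes in all). With the replicate block on the paired genotypes alone they were 10 and 13, where 5.01% of all genes passed. For both carriers (2 and 2) DESeq2 gave 6 and 7, where 201 of all genes (1.55%) passed. Library totals and the filter of 1 CPM in 3 libraries gave 0, also over all genes. The replicate block on all 9 libraries gave 1, the only gene to pass. Between the carriers (0) the interval gave 1 with DESeq2 and 1 without both libraries, where 138 and 95 of all genes passed. Listed genes with all 6 carrier libraries beyond WT (11) became 7 with library totals, which moved the median gene by 0.12 in hetX753, and 24 without both libraries, where 25.9% of all genes were apart; this count and its alternatives were added after the data were seen. Leaving out each library in turn gave 0 to 11 listed and 0 to 15 interval genes in hetX753, 0 to 1 of each in hetL1002P, 0 to 14 and 0 to 19 for both carriers, 0 listed and 0 to 1 interval genes between the carriers, and 11 to 22 genes apart. The highest of these mostly came without hetL1002P 3, when 669 genes passed in hetX753 and 1369 for both carriers. The lowest, 0 in hetX753, came without WT 1 or hetX753 3. Of 299 values of the named genes in hetX753 against WT, 273 kept their direction and side of the threshold, 15 lost the call and 11 gained it. In hetL1002P 284 of 299 kept both and 15 gained the call. For both carriers 240 of 269 kept both, 17 lost the call and 12 gained it. The 273 and the 240 each include the DESeq2 value of Gm14085, which kept its direction but had no adjusted p. The only reversal was Pla2g4e between the carriers, 0.01 without hetL1002P 1, against -0.07 with all libraries (-0.17 to 0.01 over the libraries left out). The causes of these moves were not tested. At under 1 CPM, Gm14085 rests on 0 to 32 counts per library; it was not tested with the filter of 1 CPM, and DESeq2 gave it no adjusted p in hetX753 or for both carriers.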

Other observations

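Within 10 Mb of Bub1b, 90 tested genes are not on the list. Of these, 9 (10%) had all 6 carrier libraries beyond the WT range, against 4.45% of all tested genes. None of the 90 passed the test in any comparison. The share was 7.78% against 4.2% with library totals as the only scaling, and 15.6% against 6.77% without WT 3. Without both WT 3 and hetL1002P 3 it was 30% against 25.9%, close to the background. The 9 genes are named here after their values were seen. Kif18a, a kinesin that sets chromosome alignment in mitosis, lies at -9.309 Mb from Bub1b and averaged 0.261 ± 0.0691 CPM over the WT libraries, 0.517 ± 0.145 CPM over hetL1002P and 0.761 ± 0.267 CPM over hetX753 (SD, n = 3 each), a level at which few counts decide. A430105I19Rik, 0.139 Mb from Bub1b, averaged 23.8 ± 4.02 CPM over WT, 33.1 ± 1.20 CPM over hetL1002P and 38.1 ± 6.41 CPM over hetX753, with an adjusted p of 0.0815 in hetX753 and 0.579 in hetL1002P (edgeR quasi-likelihood test). Its neighbour 5430417L22Rik had log2 fold changes of 0.34 and 0.17. Close to Trpm7, Sppl2a, an intramembrane protease of late endosomes, had 0.30 in hetX753 and 0.28 in hetL1002P, and Ap4e1, a subunit of the AP-4 trafficking adaptor, 0.41 and 0.31. Zfp661 had 0.42 and 0.38, and Bloc1s6, a subunit of the BLOC-1 complex of lysosome-related organelles, 0.18 and 0.36. Mall and Adal lay below WT, with -0.45 and -0.28 in hetX753 and -0.48 and -0.22 in hetL1002P.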
